A study of Homo sapiens with 3 samples.

Results

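The protein kinase C isoforms were followed here as 8 genes, PRKCA, PRKCB, PRKCD, PRKCE, PRKCH, PRKCQ, PRKCI and PRKCZ, in HEK-293T cells, a line derived from human embryonic kidney, without stress. Their members were the probe sets that the array's annotation lists for these symbols, 25 of 54675 probe sets and 8 of 19775 genes, and each of the 25 was listed for a single gene. RNA of 3 cultures was hybridised to Affymetrix U133 Plus 2.0 arrays to learn which genes the cells express before siRNAs were designed against them. All 3 cultures were untreated, were grown in DMEM with FBS and antibiotics in a 6 well dish, and carry an inserted temperature sensitive gene for SV40 T-antigen according to their labels. Cultures seeded with 375K cells (RNA integrity number 9.6) and 750K cells (10.0) were harvested at 48 h, and 1 seeded with 1000K cells (9.5) at 24 h. The 48 h cultures are named 375K and 750K in what follows. Effects of seeding, of harvest time and of a batch cannot be told apart with these cultures, no stressed cells were measured, and the cells are an established line whose cultures may or may not be independent passages.

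Protein kinases C are serine/threonine kinases that share a conserved catalytic domain and differ in the regulatory region that holds it inactive. Classical isoforms (cPKC: alpha, PRKCA, and beta, PRKCB) respond to calcium and diacylglycerol, the lipid that phospholipase C releases from membrane phosphoinositides. The nPKC isoforms (delta, PRKCD, epsilon, PRKCE, eta, PRKCH, and theta, PRKCQ) respond to diacylglycerol without calcium, and atypical isoforms (aPKC: iota, PRKCI, and zeta, PRKCZ) respond to neither and are controlled through protein partners such as the polarity protein PAR6. PRKCI was among the candidate regulators of the heat shock response that the study tested by RNAi.

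The 250 bases before the RefSeq start of all 8 genes were searched for promoter motifs on both strands (GRCh38.p14). Promoters of PRKCI, PRKCB and PRKCQ are shown because every probe set of PRKCI was above background, none of the 6 of PRKCB was, and PRKCQ gave the largest difference between 48 h and 24 h. They lie at chr3:170222174-170222423 (plus strand), chr16:23835733-23835982 (plus strand) and chr10:6580647-6580896 (minus strand). Capitals mark a GC box (GGGCGG, or its reverse complement) in PRKCI and PRKCB, and, in PRKCQ, the letters of a TATA box (TATAAA) near the far end of the window and of a CCAAT box (CCAAT) nearer to the start.
PRKCI: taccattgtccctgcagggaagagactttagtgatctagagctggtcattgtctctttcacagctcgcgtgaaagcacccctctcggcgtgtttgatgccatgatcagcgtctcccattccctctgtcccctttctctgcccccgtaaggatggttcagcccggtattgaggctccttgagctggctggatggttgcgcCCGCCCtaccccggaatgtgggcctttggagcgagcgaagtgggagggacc
PRKCB: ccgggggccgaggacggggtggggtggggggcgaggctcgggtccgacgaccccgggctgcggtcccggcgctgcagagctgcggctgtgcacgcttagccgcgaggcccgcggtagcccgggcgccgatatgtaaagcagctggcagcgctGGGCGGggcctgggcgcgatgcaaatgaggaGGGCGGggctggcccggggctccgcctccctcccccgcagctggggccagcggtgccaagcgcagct
PRKCQ: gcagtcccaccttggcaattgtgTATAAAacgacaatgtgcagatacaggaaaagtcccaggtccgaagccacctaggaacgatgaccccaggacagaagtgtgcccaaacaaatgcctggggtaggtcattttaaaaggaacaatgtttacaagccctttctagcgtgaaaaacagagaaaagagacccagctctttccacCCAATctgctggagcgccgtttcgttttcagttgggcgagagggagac

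The motifs searched were the core of the heat shock element (GAANNTTC), which HSF1 binds, the AP-1 site (TGANTCA), through which phorbol esters act on transcription, and the GC, CCAAT and TATA boxes, and no motif overlapped another in the printed sequences. None of the 8 windows held the heat shock element core or the AP-1 site, against 5.78% and 6.57% of the 35116 promoters in the table. A GC box was found in 7 of 8, against 42.6% of all promoters, and PRKCQ alone lacked it. PRKCQ also held the only CCAAT box and the only TATA box of the 8 (32% and 10.7% of all promoters). The promoter of PRKCA held 47 CpG dinucleotides, more than 99.7% of all promoters had. PRKCB and PRKCH held 30 each, PRKCD 24 and PRKCE 23. PRKCI and PRKCZ, both above background, held 12 each, close to the median of 11 over all promoters, and PRKCQ held 8. The counts of PRKCB and PRKCE, neither of them above background in the cells, lay within the range of the 6 genes that were, from 8 to 47. That range is wide, and whether CpG content goes with the signal was not tested. A motif match is a match of letters and not a binding site, and a missing match concerns this window only. A gene can have other starts, which were not searched, so the counts belong to the window used and not to every promoter of the gene.

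**Figure D1:**
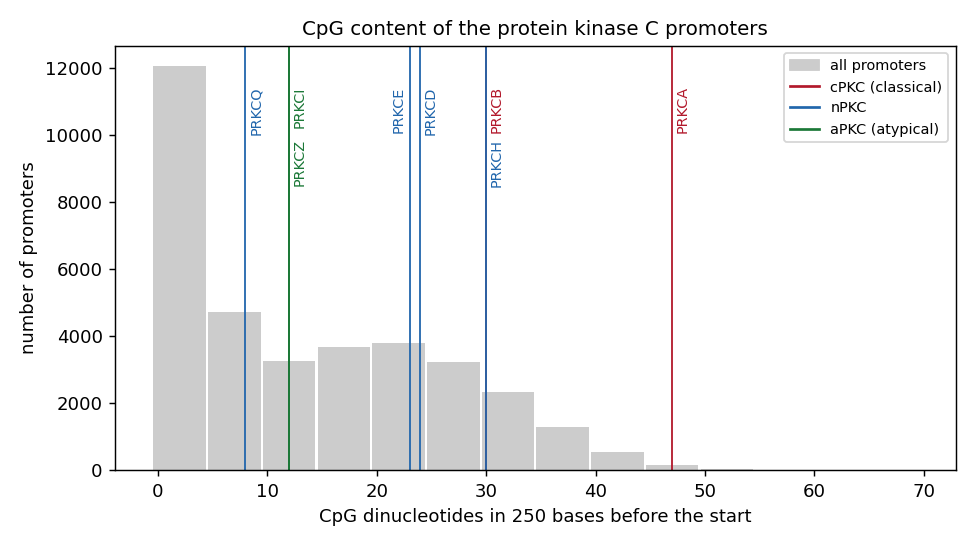
CpG dinucleotides (number, horizontal axis) in the 250 bases before the RefSeq start, with the number of promoters on the vertical axis; grey bars are all 35116 promoters and vertical lines the 8 protein kinase C genes, coloured by class. PRKCA lies at 47, the atypical PRKCI and PRKCZ share 12, and PRKCB and PRKCH share 30.

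Both atypical isoforms gave signals above background in the unstressed cells on each of their probe sets, as did the nPKC isoforms PRKCD and PRKCQ. PRKCH did so on 1 of 3 probe sets and PRKCA on 2 of 5, and PRKCE and PRKCB on none. In RNA from whole cultures, more cells with a transcript and more transcript per cell cannot be told apart. A probe set was counted as above background where its MAS5 signal (an intensity on a linear scale) exceeded a threshold on each of the 3 arrays. The threshold was the 95th percentile of a reference of 362 probe sets whose genes belong to other tissues, at 105.2 (375K) and 125.2 (750K) at 48 h and 84.6 at 24 h. By this measure 4 of 4 atypical, 4 of 10 nPKC and 2 of 11 classical probe sets were above background. In total this gave 10 of 25 (40.0%), against 37.8% of all probe sets on the array. At least 1 probe set was above background for 6 of the 8 genes, against 51.0% of all genes, and PRKCB and PRKCE had none. The share of probe sets was thus near that of the whole array, and no test sets the classes apart. Probe sets differ in how brightly they report a transcript, so isoforms are not ranked by signal.

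**Figure D2:**
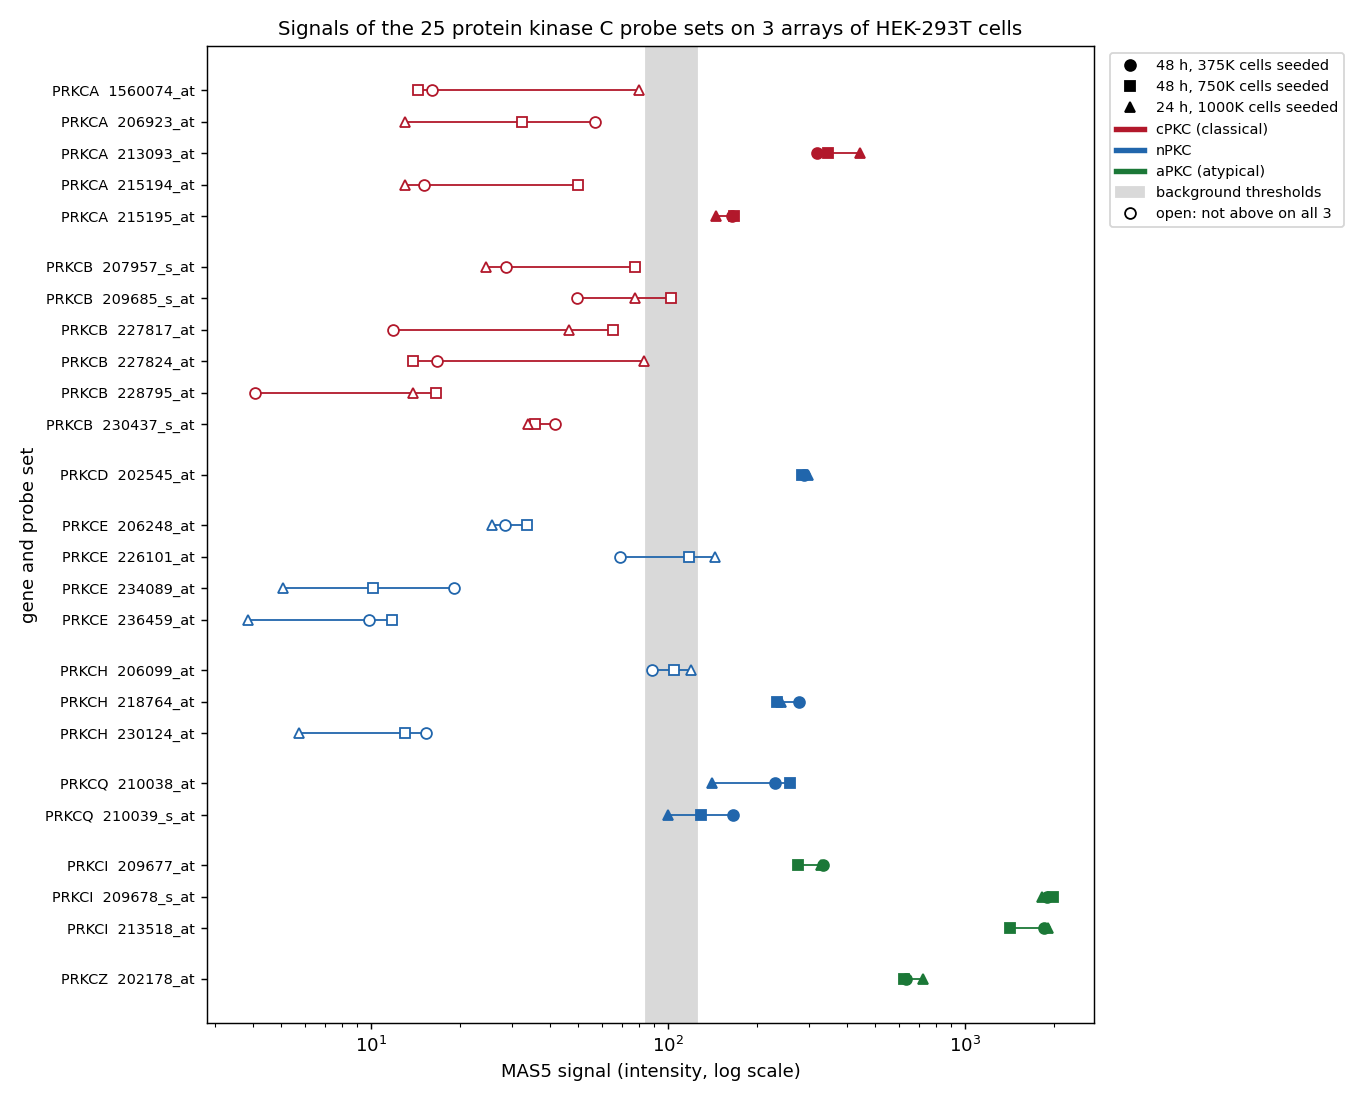
MAS5 signal (intensity, log scale, horizontal axis) of each of the 25 protein kinase C probe sets (rows, grouped by gene and coloured by class) in 3 cultures of HEK-293T cells, with a symbol for each array and a line over their range. The grey band spans the thresholds of the arrays from 84.6 to 125.2, and the 4 atypical probe sets lie to its right while the 6 of PRKCB have no symbol beyond its right edge.

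PRKCI, the atypical isoform that joins PAR3 and PAR6 in cell polarity, was above background on 3 of 3 probe sets. Probe set 209678_s_at gave signals of 1896 (375K) and 1989 (750K) at 48 h and 1818 at 24 h, a mean of 1901 ± 85.7 (SD, n = 3 arrays). Probe set 213518_at gave 1846, 1422 and 1902 in the same order (1724 ± 262). Here the 750K culture stood below the others. Probe set 209677_at gave 334.0, 273.6 and 327.6 (311.7 ± 33.1), again with the 750K culture lowest. The 750K culture was thus lowest on 2 probe sets of PRKCI and highest on the other, so the probe sets of this gene did not share an order of the cultures. The lowest signal of PRKCI on any array was 2.19 times the threshold of that array and the highest 22.5 times.

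PRKCZ, the other atypical isoform and the closest relative of PRKCI, had a single probe set (202178_at). Its signals were 633.1 (375K) and 623.4 (750K) at 48 h and 726.2 at 24 h (660.9 ± 56.8, SD, n = 3 arrays). At 48 h the 750K culture gave 0.985 times the signal of the 375K culture, both were below the 24 h culture, and the lowest signal was 4.98 times its threshold.

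Among the nPKC isoforms, PRKCD, a kinase linked to apoptosis and stress signalling, gave 287.4 (375K) and 283.3 (750K) at 48 h and 296.3 at 24 h (202545_at, 289.0 ± 6.61, SD, n = 3 arrays). This was the most even of the 25 probe sets, with an SD of 0.03 on the log2 scale. Of the 4535 probe sets of the array with a mean log2 signal within 0.5 of it, 1.54% had a lower SD.

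PRKCQ, best known as the isoform of the T cell immunological synapse, was above background on 2 of 2 probe sets. Probe set 210038_at gave 229.8 (375K) and 258.2 (750K) at 48 h and 140.4 at 24 h, and 210039_s_at gave 165.4, 128.9 and 100.1. Probe set 210038_at was lowest in the 24 h culture, without overlap with the 48 h cultures. The order of 210039_s_at lends it no support, because this probe set passed the filter on low signals, described below, through the 48 h cultures. The 24 h signal lay outside the range of the 48 h signals, above or below, in 70.5% of all probe sets tested between the harvest times. The signal of 210039_s_at in the 750K culture was 1.03 times the threshold of that array. None of the 4 measured lymphoid and myeloid marker genes (PTPRC, CD3E, CD14 and LYZ) was above background, so the order of their signals over the cultures is not read.

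PRKCH, an isoform of epithelial tissues, was above background on 1 of 3 probe sets. Probe set 218764_at gave 277.0 (375K) and 233.3 (750K) at 48 h and 240.6 at 24 h, at least 1.86 times the threshold. Probe set 206099_at gave 88.7, 105.3 and 120.1, which exceeded the threshold in the 24 h culture only, and 230124_at stayed between 5.72 and 15.3. PRKCE, a kinase studied for its part in cardiac protection and cell growth, had no probe set above background on all arrays. Its probe set 226101_at gave 69.3 (375K) and 117.9 (750K) at 48 h and 144.5 at 24 h and exceeded the threshold at 24 h only. The other 3 probe sets of PRKCE had means from 8.52 (236459_at) to 29.1 (206248_at), with 11.5 for 234089_at. The 24 h culture had the lowest threshold and the largest share of all probe sets above its own threshold, 46.9% against 42.2% and 41.1% in the 375K and 750K cultures at 48 h, and whether this accounts for the single array of PRKCE and PRKCH was not tested.

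The classical isoform PRKCA, a widely expressed kinase, was above background on 2 of 5 probe sets. Probe set 213093_at gave 317.9 (375K) and 346.5 (750K) at 48 h and 442.4 at 24 h (368.9 ± 65.2, SD, n = 3 arrays). Probe set 215195_at gave 164.9, 167.7 and 144.9 (159.2 ± 12.5), so the 24 h culture was highest on the first and lowest on the second. The other 3 probe sets of PRKCA, 1560074_at, 215194_at and 206923_at, had means of 26.0 to 36.9. Among them was 206923_at, the one whose annotation carries a RefSeq mRNA of PRKCA, with 57.0, 32.4 and 13.1. PRKCB, an isoform prominent in B cells and brain, gave means of 11.5 to 76.6 on its 6 probe sets. The highest mean was that of 209685_s_at, with 49.6 (375K) and 102.6 (750K) at 48 h and 77.6 at 24 h, up to 0.917 times the threshold of its array. Its 227824_at reached 0.985 times the threshold at 24 h (83.3), and was at 16.7 and 13.8 in the 375K and 750K cultures at 48 h. The most even was 230437_s_at, with 41.6, 35.6 and 34.0, and the dimmest 228795_at, with 4.07, 16.6 and 13.8. Means were 43.6 for 207957_s_at and 41.4 for 227817_at. For PRKCB and PRKCE the data give only that their signals were not above the threshold set by genes of other tissues.

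With the 99th percentile as threshold (247.2 (375K) and 211.0 (750K) at 48 h and 263.0 at 24 h), 6 of the 25 probe sets stayed above background, against 28.7% of all probe sets. PRKCH and PRKCQ were lost, and PRKCI, PRKCZ, PRKCD and PRKCA remained, 4 of 8 genes against 42.4% of all genes. The probe sets lost were 215195_at of PRKCA, 218764_at of PRKCH and both of PRKCQ. All 4 atypical probe sets passed at this threshold, against 1 nPKC and 1 classical probe set. Requiring a majority of each gene's probe sets left 4 of 8 genes, without PRKCA and PRKCH, against 38.1% of all genes. PRKCI, PRKCZ and PRKCD were above background under both rules. By the record that the annotation lists, 3 of 7 probe sets with a RefSeq mRNA, 6 of 13 with another GenBank record and 1 of 5 with none were above background.

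The spread between arrays followed the signal. Over the 10 protein kinase C probe sets above background the SD of the log2 signal had a median of 0.145, against 0.15 over all probe sets above background, and the median over all other probe sets was 0.89. Within the family it ran from 0.03 for PRKCD to 0.47 for 210038_at of PRKCQ. Against probe sets of like signal, meaning a mean log2 signal within 0.5, the most uneven was 213518_at of PRKCI. Its SD of 0.23 was above that of 90.7% of 3067 such probe sets. The SD of 210038_at of PRKCQ was above that of 83.1% of 4622, and that of 209678_s_at of PRKCI (0.065) was above that of 24.1% of 2882. Of the 10 probe sets, the 24 h culture was highest on 4 and lowest on 4, the 375K culture highest on 3 and lowest on 1, and the 750K culture highest on 3 and lowest on 5.

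**Figure D3:**
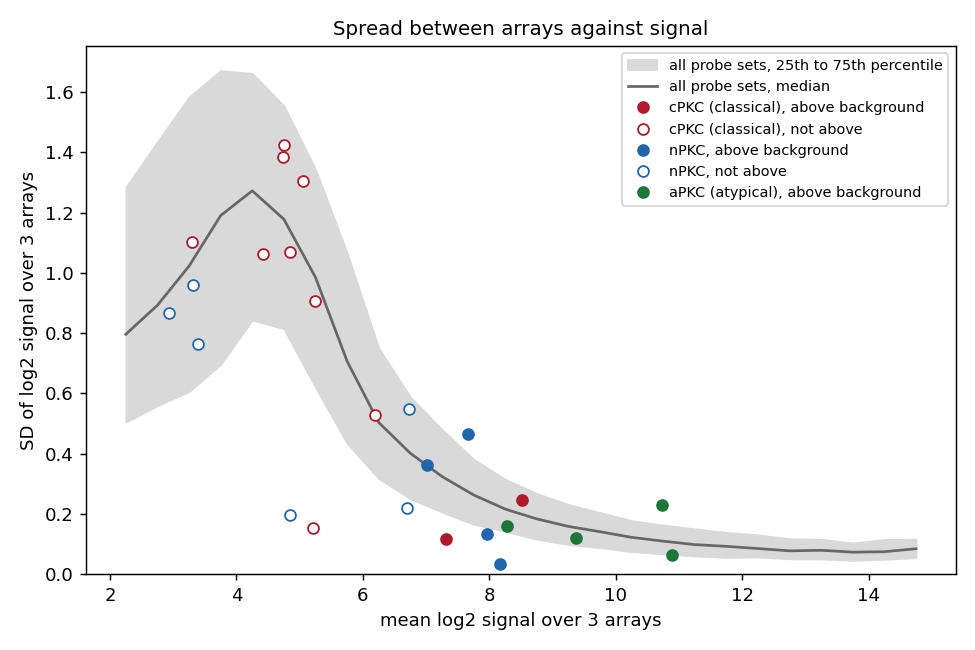
SD of the log2 signal over 3 arrays (vertical axis) against the mean log2 signal (horizontal axis). The grey line and band give the median and the 25th to 75th percentile of all probe sets, and points are the 25 protein kinase C probe sets by class, filled where above background. Points at low signal spread widely like other probe sets there, while PRKCD lies at 0.03.

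No protein kinase C probe set passed the test between the 48 h cultures and the 24 h culture, and the intervals leave room for differences in either direction. The question was whether the level of any isoform moved with harvest time and seeding. Of the 25 probe sets, 11 passed the filter on low signals (a mean log2 signal above that of the mean threshold of 105.0) and were tested in a limma fit over all 22698 probe sets that passed. Of the 11, 0 were called at an adjusted p under 0.05, and 0 had an unadjusted p under 0.05. Over the whole array 71 probe sets were called (0.313%, 17 higher and 54 lower at 48 h) and 2128 had an unadjusted p under 0.05. When arrays were scaled to equal medians, 12 were called (6 higher and 6 lower at 48 h), and without limma's trend 0 were, with 1372 at an unadjusted p under 0.05. The fit takes the spread of the single 24 h array to be that of the arrays at 48 h, and a permutation of 3 arrays could not go below p = 0.333.

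The differences (48 h minus 24 h, on the scale of log2(signal + 18.6), which understates changes of low signals) had a median of -0.0047 over all probe sets tested. The largest of a protein kinase C probe set was that of PRKCQ, 0.72 on 210038_at (standard error 0.36, 95% interval -0.04 to 1.49, limma, adjusted p = 0.568). A larger size was found in 3.14% of all probe sets tested. These include brighter probe sets with less spread, and 210038_at was picked as the largest of its family, so the share does not mark it as exceptional. For the other probe set of PRKCQ, 210039_s_at, the 24 h signal (100.1) was under the mean threshold. This probe set passed the filter through the 48 h cultures, which fixed its direction. It therefore says nothing about the direction of 210038_at, and no difference is given for it. In the same way 226101_at of PRKCE was under the threshold in both 48 h cultures and passed through the 24 h culture alone, which fixed its direction, so no difference is given for it.

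The 2 tested probe sets of PRKCA went opposite ways, with -0.40 for 213093_at (95% interval -0.96 to 0.17) and 0.18 for 215195_at (-0.68 to 1.03). Those of PRKCI gave 0.09 (-0.16 to 0.35) for 209678_s_at, -0.11 (-0.74 to 0.52) for 209677_at and -0.23 (-0.54 to 0.08) for 213518_at. PRKCZ gave -0.20 (-0.61 to 0.20), PRKCD -0.05 (-0.69 to 0.59) and PRKCH 0.07 (-0.62 to 0.77). The intervals of PRKCI and PRKCZ reach down to -0.74 on the log2 scale, so equal levels were not shown. In 9 of 11 probe sets the 24 h signal lay outside the range of the 48 h signals, near the 70.5% of all probe sets tested.

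**Figure D4:**
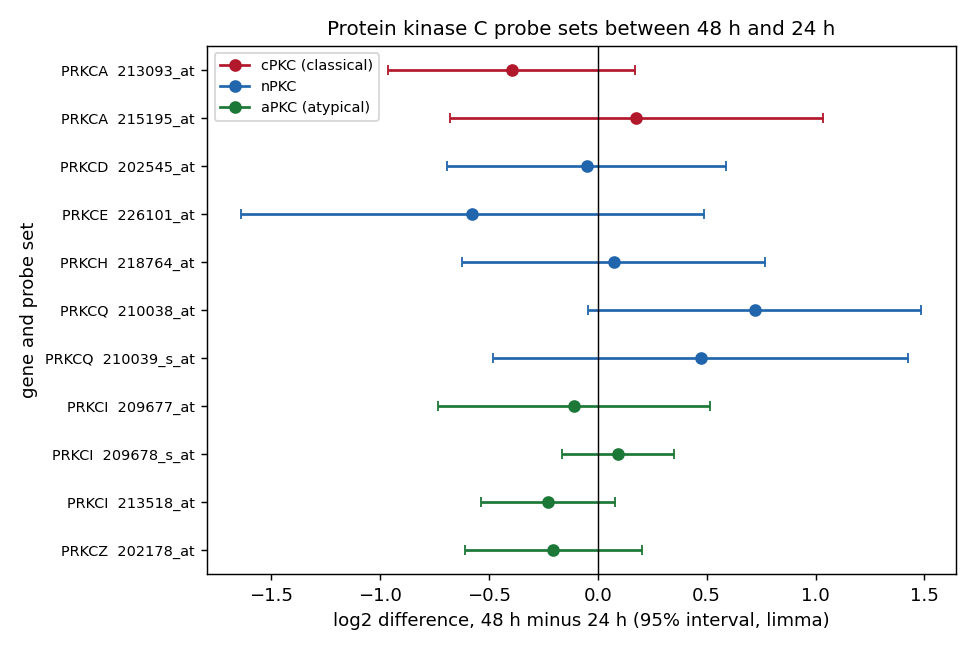
Log2 difference, 48 h minus 24 h (horizontal axis, points), with the 95% interval of the limma fit (bars) for the 11 protein kinase C probe sets tested (rows), coloured by class. All 11 intervals include 0. The row of PRKCE had a mean at 48 h under the limit of the filter and passed only with the 24 h signal added. That of 210039_s_at of PRKCQ passed through the 48 h cultures. The filter thus fixed the direction of both rows. The interval of 210038_at of PRKCQ runs from -0.04 to 1.49.

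Genes acting around the kinases were more often above background than the array as a whole, 48 of 59 measured genes (81.4%) against 51.0%, a description without a test. A gene counts where any of its probe sets passes, so genes with more probe sets pass more easily. The lists were also chosen with earlier results of these data known. All 10 measured genes of maturation and dephosphorylation were above background, among them PDPK1, which phosphorylates the activation loop (1506 ± 141, SD, n = 3 arrays, as for the values that follow), and MTOR (312.4 ± 23.6) and RICTOR (646.9 ± 31.4), which form the complex mTORC2 that acts on the kinases' carboxyl terminus. All 9 scaffolds and anchors were also above background. The polarity partners PARD3 gave 437.5 ± 68.9, PARD6A 146.7 ± 20.1 and PARD6B 341.4 ± 96.0. SQSTM1, an adaptor that binds atypical isoforms, gave 1478 ± 191, and CDC37, a co-chaperone for kinases, 3095 ± 154. Both were chosen for naming after their values were seen.

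All 11 substrates were above background, with the membrane protein MARCKS at 5310 ± 627, its relative MARCKSL1 at 9028 ± 1012 and the growth cone protein GAP43 at 157.3 ± 32.7. Of the phospholipases C, which form diacylglycerol, 6 of 10 were above background, including PLCB1 (828.8 ± 117), PLCB3 (229.0 ± 72.2) and PLCB4 (254.2 ± 6.86), while PLCB2, PLCD1, PLCD4 and PLCE1 were not, at means of 22.8 to 123.5. The diacylglycerol kinases, which remove the lipid, split in a like way. DGKD (392.2 ± 101), DGKE (330.3 ± 53.1) and DGKH (513.7 ± 105) were among the 5 of 9 above background, and DGKA, DGKB, DGKG and DGKI were not. DGKA (122.8 ± 25.3) was under the threshold in the 750K culture only (104.6), while DGKB, DGKG and DGKI had means of 27.3 to 40.0. Of the related kinases and other diacylglycerol receptors 7 of 10 were above background, including protein kinases D, PRKD1 (379.9 ± 94.5), PRKD2 (594.1 ± 55.6) and PRKD3 (1954 ± 23.3). The exchange factors RASGRP1, RASGRP3 and RASGRP4, known from lymphoid and myeloid cells, had means of 27.2 to 33.3 and were not. RASGRP2 of the same family, named after its values were seen, passed on 1 of its 4 probe sets, which gave 112.7 (375K) and 139.3 (750K) at 48 h and 109.0 at 24 h. Each value is that of the gene's brightest probe set.

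**Figure D5:**
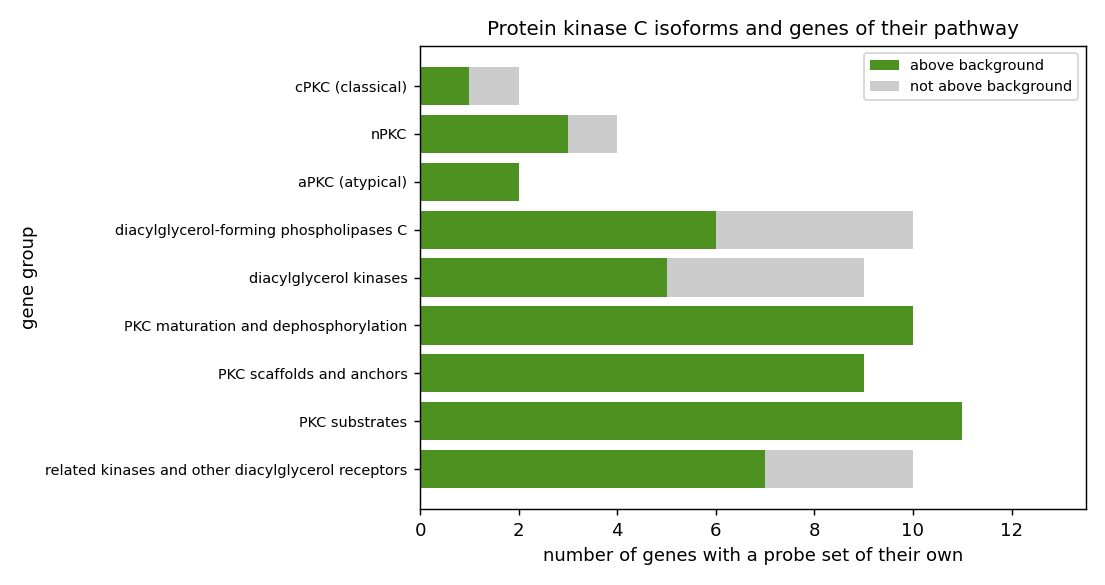
Number of genes with a probe set of their own (horizontal axis) in the 3 classes of protein kinase C and in 6 groups of genes that act with them (rows), divided into those above background (green) and those not (grey). All measured genes are green for atypical isoforms, maturation, scaffolds and substrates.

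The lists had 98 probe sets of 50 genes in the fit, 47 higher and 51 lower at 48 h. Of these 0 were called between 48 h and 24 h, and with 0.313% of all probe sets called this says nothing particular about the lists. Their median difference was -0.01 on the log2 scale, with a lowest adjusted p of 0.185 (limma). Medians by list ran from -0.36 for the diacylglycerol kinases to 0.15 for the related kinases and other receptors.

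The genes whose pattern over the 3 arrays was most like that of PRKCI (209678_s_at) were CDYL (664.7 and 695.7 at 48 h and 635.6 at 24 h), CBX2 and POLH, with Euclidean distances of 0.0027, 0.00275 and 0.00381 between centred log2 signals. With 3 arrays such likeness is common, and 2791 of the 18197 probe sets compared (15.3%) lay within 0.1.

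Over the whole series, the 3 arrays correlated at 0.984 to 0.987 across probe sets above background on the log2 scale. The arrays are not known to be independent replicates. The mean after trimming 2% at each end was 500.1 on every array. The label kidney was checked against markers. Of the nephron progenitor and kidney factors SIX2, WT1 and PAX8 were above background and PAX2 and LHX1 were not, and 0 of 5 mature tubule genes were. Of the neuronal and chromaffin genes 2 of 6 were above background, the neurofilament genes NEFL and NEFM, while STMN2, TH, DBH and CHGA were not. Of the epithelial genes 3 of 4 were (KRT8, KRT18 and CDH1, not EPCAM), of the endothelial genes 0 of 3 and of the fibroblast genes 1 of 4 (COL1A1).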

How the data were processed

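The authors normalised the arrays by MAS5 (the submitters' processing notes name GCOS 1.0) and deposited 1 signal per probe set and culture, an intensity on a linear scale. Their detection calls were not used here. Genes were taken from the platform annotation, with symbols updated by gene ID to GRCh38.p14; of the probe sets, 41097 carried 1 gene, 1801 more than 1 and 11777 no gene. The reference for background comprised 257 genes with 362 probe sets, of which 155 belong to receptors of smell or bitter taste and 7 were themselves above background. The 48 h cultures were compared with the 24 h culture by limma 3.58.1 (R 4.3.3) with a mean-variance trend on log2(signal + 18.6), where 18.6 is the median signal of the reference, with Benjamini-Hochberg adjustment over all probe sets tested. The script was tested on simulated data. Each probe set leaves the fit 1 residual degree of freedom. The sources do not say whether RNA came from separate passages, so p-values measure only the spread between these samples, which may be technical. The number of arrays limits the precision. Promoters are those of RefSeq, with the first listed for each symbol used, and all 8 genes matched.

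Named were all probe sets of the 8 genes and, in each list of related genes, those on the smaller side of above or not above background where at most 5, with the first 3 of the other side; other genes of the lists are said to be chosen later. Members and lists were chosen with earlier results of these data known. Alternatives were other percentiles, references, numbers of arrays and normalizations, other added values, no filter, no trend and each array left out.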

Additional observations from a re-analysis of the deposited data

How the results depend on the processing

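The number of protein kinase C probe sets above background moved by over 1.5 times only with the 99th percentile as threshold, to 6 of 25, with 1 classical and 1 nPKC probe set, while the atypical ones stayed at 4. It was 9 to 11 of 25 under the other alternatives that kept all probe sets. Without probe sets whose names end in _s_at or _x_at it was 8 of 20. Leaving out any array left 10 probe sets and 6 genes. Between 48 h and 24 h 71 probe sets were called, against 12 after scaling to equal medians and 0 in limma without a trend (1372 at an unadjusted p under 0.05), and the cause was not tested. No protein kinase C probe set was called under any setting that could be fitted. With a 48 h array left out there is 1 array on each side, which gives values and no test. The log2 difference then ranged from -0.041 to 0.19 for 218764_at of PRKCH and from -0.24 to 0.027 for 209677_at of PRKCI, so that both changed sign, PRKCH without the 375K and PRKCI without the 750K culture. Without change of sign it moved by over 1.5 times for 213518_at (-0.41 without the 375K and -0.043 without the 750K culture) and 209678_s_at of PRKCI (0.13 and 0.06). For 210039_s_at of PRKCQ and 226101_at of PRKCE the filter fixed the sign, so their differences are left out here. No paired analysis was possible because the labels give no replicate numbers that join the groups. Signal over background limits what the low probe sets show, with a median SD of 0.89 on the log2 scale below the threshold.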
